A study of Mus musculus with 11 samples.

Results

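BAFF, APRIL and their 3 receptors were followed as a set of 5 transcripts in lacrimal glands of male NOD mice, a strain in which males spontaneously develop autoimmune inflammation of this tear-producing gland. The set was defined by name, as the 2 ligands *Tnfsf13b* (BAFF) and *Tnfsf13* (APRIL) and the receptors *Tnfrsf13b* (TACI), *Tnfrsf13c* (BAFF-R) and *Tnfrsf17* (BCMA). All 5 were found among the 19058 genes of the expression table, and all 5 were among the 13937 genes with at least 30 counts summed over the WT mice, which were tested. Whole-gland RNA was sequenced from 3 wild-type (WT) mice, 5 *Tlr7* knockout (KO) mice and 3 *Ifnar1* KO mice, 1 library per mouse. The question addressed was which gland transcripts require TLR7, an endosomal sensor of single-stranded RNA, and which require IFNAR1, a chain of the type I interferon (IFN) receptor. The *Tlr7* KO mice carried a 2 bp deletion made by CRISPR/Cas9 in NOD embryos, and the *Ifnar1* KO mice carried the allele Ifnar1em16 on the NOD background, so that each KO stands for 1 allele that affects every tissue. WT and *Tlr7* KO mice were 20 to 22 weeks old, and the age of the *Ifnar1* KO mice was not given in the sources used here. Per the methods of the study, a further *Ifnar1* KO mouse was left out of that group by its authors because its expression and gland inflammation resembled WT, so the *Ifnar1* KO mice were in part chosen on an outcome, which bears on their folds and on their lack of overlap with WT. Both KO groups were compared with the same WT mice, so the 2 comparisons are not independent of each other.

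BAFF and APRIL are ligands of the tumor necrosis factor (TNF) superfamily that are made largely by myeloid cells and also by stromal, epithelial and lymphoid cells. BAFF binds BAFF-R, through which mature B cells receive a survival signal by the alternative NF-κB pathway, and both ligands bind TACI, found on marginal zone, memory and activated B cells, and BCMA, found on plasma cells. BAFF is known as an IFN-responsive gene and for its raised levels in Sjögren syndrome, in which B cells and plasma cells collect in lacrimal and salivary glands.

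On GRCm38, with GENCODE M21 gene models, *Tnfsf13b* (ENSMUSG00000031497) lies on the plus strand at chr8:10006467-10039072 and *Tnfrsf13c* (ENSMUSG00000068105) on the minus strand at chr15:82221743-82224369. *Tnfrsf13b* (ENSMUSG00000010142) lies on the plus strand at chr11:61126755-61149372 and *Tnfrsf17* (ENSMUSG00000022496) on the plus strand at chr16:11313812-11320074. *Tnfsf13* (ENSMUSG00000089669) lies on the minus strand at chr11:69682846-69685784, next to *Tnfsf12*, which encodes the related ligand TWEAK. Of its 1637 exonic bases, 60.0% are shared with *Tnfsfm13*, a read-through gene that joins *Tnfsf12* and *Tnfsf13*, and 13.5% overlap the antisense gene *Tnfsf13os*, so reads from these genes could not be fully told apart and *Tnfsf13* values are uncertain to that extent. *Tnfsfm13* itself was given 0 counts in all mice except *Tlr7* KO 2 (5 counts) and *Ifnar1* KO 3 (6 counts).

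The stretches before the start sites are shown because 3 of the 5 transcripts moved together (below the WT level in both KO groups), and so that the letters can be read beside the values. Each is the 250 bases before the RefSeq start site on GRCm38.p6, written 5′ to 3′ on the strand of the gene. A search for 4 motifs covered both strands of the window from 250 bases before to 50 bases after each RefSeq start: the IFN-stimulated response element (ISRE) core GAAA-NN-GAAA, the κB core GGG-NNNNN-CC, a PU.1-type ETS motif GAGGAAGT and the TATA box TATAAA. Capitals mark the matches.
*Tnfsf13b* chr8:10006217-10006466 plus strand: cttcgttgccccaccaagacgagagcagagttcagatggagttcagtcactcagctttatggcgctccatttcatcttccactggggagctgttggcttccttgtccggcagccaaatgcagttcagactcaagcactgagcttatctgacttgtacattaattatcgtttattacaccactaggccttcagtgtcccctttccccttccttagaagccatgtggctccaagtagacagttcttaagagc
*Tnfrsf13b* chr11:61126505-61126754 plus strand: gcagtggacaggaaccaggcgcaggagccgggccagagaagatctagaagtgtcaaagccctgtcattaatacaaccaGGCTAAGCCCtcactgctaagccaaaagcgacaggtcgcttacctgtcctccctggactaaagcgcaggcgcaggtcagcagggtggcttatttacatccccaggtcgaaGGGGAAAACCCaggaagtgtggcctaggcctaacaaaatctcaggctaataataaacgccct
*Tnfrsf13c* chr15:82224381-82224630 minus strand: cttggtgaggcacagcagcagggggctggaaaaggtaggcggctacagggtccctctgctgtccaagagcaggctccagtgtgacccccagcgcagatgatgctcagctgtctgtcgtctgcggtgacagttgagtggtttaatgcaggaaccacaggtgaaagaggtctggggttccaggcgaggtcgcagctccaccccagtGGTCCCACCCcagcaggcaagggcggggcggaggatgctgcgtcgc
*Tnfrsf17* chr16:11313559-11313808 plus strand: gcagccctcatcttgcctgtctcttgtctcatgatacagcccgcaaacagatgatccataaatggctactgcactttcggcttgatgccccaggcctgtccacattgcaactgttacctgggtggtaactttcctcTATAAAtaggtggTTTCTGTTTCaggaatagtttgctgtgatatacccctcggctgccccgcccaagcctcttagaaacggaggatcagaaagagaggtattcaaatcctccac

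The window of the first *Tnfsf13b* start held none of the motifs. Its second RefSeq start, at position 10006633 of chromosome 8, held an ISRE core from 16 to 7 bases before the start, shown in the 30 bases around it.
*Tnfsf13b* ISRE core chr8:10006607-10006636 plus strand: tacaaaaactGAAAGTGAAAtgcggaaggc
An ISRE core occurred in 3.44% of the 32851 mouse promoter windows of this length. *Tnfrsf17* held the other ISRE core of the set, on the minus strand from 101 to 92 bases before its start, and a TATA box from 114 to 109 bases before it, a motif found in 13.6% of windows. The κB core, found in 50.8% of all windows, occurred before *Tnfrsf13b* (3 sites, of which 2 overlap each other), *Tnfrsf13c* (1 site) and *Tnfsf13*. The PU.1-type motif, found in 3.2% of windows, was in none of the windows of the 5 genes. A match is a description of the letters and not evidence of binding, and the absence of a match says only that these letters are not in the window.

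Between 20512315 and 28814250 estimated counts were assigned per library, so that 3 counts, taken as the limit of detection, correspond to between 0.082 and 0.157 CPM (counts per 1000000 in the library, scaled by TMM factors). The transcripts of the targeted genes could not check the genotypes, since a gene-level count does not see a 2 bp deletion and the change in the *Ifnar1* allele was not given in the sources used here. *Tlr7* was at 2.92, 1.53 and 2.71 CPM in WT 1 to 3, at 0.496 to 0.949 CPM in *Tlr7* KO and at 0.615, 0.822 and 0.251 CPM in *Ifnar1* KO. *Ifnar1* was at 15, 10.6 and 15 CPM in WT, at 8.28 to 11.1 CPM in *Tlr7* KO and at 8.37, 9.08 and 9.61 CPM in *Ifnar1* KO. WT 2 stood apart from the other WT mice, with the lowest summed CPM of 11 B cell markers in WT (98.7 CPM, against up to 344 CPM), and results for the 5 transcripts, their levels relative to markers and the lists are given with and without it. WT 2 was singled out for these values, so p-values and calls without it show only how far results lean on this mouse. They add no support to the results with it. RNA of neighbouring tissue was also present in some libraries: the salivary transcript *Bpifa2* was at 1890 CPM in WT 3 and at 135 and 1660 CPM in *Ifnar1* KO 1 and 2, and the muscle transcript *Acta1* at 85 CPM in WT 1, 46.1 CPM in WT 2 and 77.3 CPM in *Tlr7* KO 4. The part of this RNA in the results below was not tested.

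Transcripts of BAFF, BAFF-R and TACI were lower in glands of both KO strains than in WT glands, with no overlap between WT and KO mice, whereas those of APRIL and BCMA stayed near the WT level. The fold change was largest for BAFF-R, lower by 13.5-fold in *Tlr7* KO and 21.3-fold in *Ifnar1* KO, and smaller for TACI (4.39-fold and 5.31-fold) and for BAFF (3.74-fold and 4.92-fold). Of the 5 transcripts, 3 were called lower and 1 higher in *Tlr7* KO by edgeR's quasi-likelihood test at a Benjamini-Hochberg adjusted p under 0.05, where 32.8% of all tested genes were called, 17.4% lower and 15.3% higher. In *Ifnar1* KO, 3 were called lower and none higher, where 19.2% of all tested genes were called, 12.4% lower and 6.76% higher. The 3 lower transcripts had no overlap between WT and KO mice, a pattern shown by 14.5% of all genes for lower values in *Tlr7* KO and by 21.2% for lower values in *Ifnar1* KO. Without WT 2, BCMA had too few counts to be tested, and 4 and 3 of the other 4 transcripts were called, where 48.9% and 34.4% of all genes were. In whole tissue, fewer cells that make a transcript and less transcript per cell cannot be told apart.

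**Figure D1:**
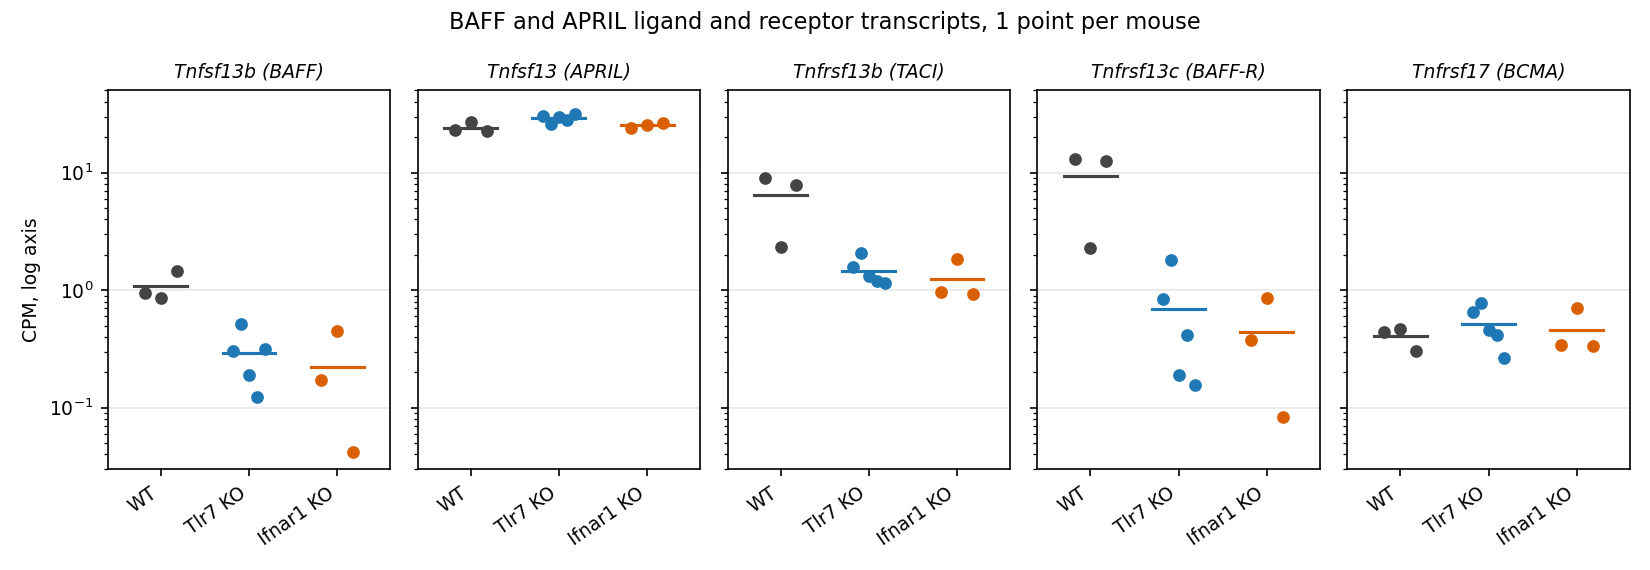
Level of each transcript in each mouse, in CPM on a log axis, with 1 point per mouse (3 WT, 5 *Tlr7* KO, 3 *Ifnar1* KO) and a bar at the group mean. WT mice lie above all KO mice for *Tnfsf13b*, *Tnfrsf13b* and *Tnfrsf13c*, and the groups overlap for *Tnfsf13* and *Tnfrsf17*.

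Of the ligands, *Tnfsf13b* (BAFF) was scarce, with 20 to 53 counts in a WT library. It was at 0.95, 0.852 and 1.45 CPM in WT 1 to 3, at 0.306, 0.52, 0.19, 0.124 and 0.315 CPM in *Tlr7* KO 1 to 5, and at 0.171, 0.449 and 0.0418 CPM in *Ifnar1* KO 1 to 3. WT 3 was the highest, each WT mouse was above each KO mouse, and *Ifnar1* KO 3 held a single count, below the limit of 3 counts. From WT (1.08 ± 0.32 CPM, SD, n = 3), the log2 fold change was −1.90 ± 0.414 (SE) in the *Tlr7* KO mice (0.291 ± 0.151 CPM, n = 5), with an edgeR quasi-likelihood adjusted p of 0.00891. In *Ifnar1* KO (0.22 ± 0.208 CPM, n = 3), it was −2.30 ± 0.647, with an edgeR adjusted p of 0.0469. Scaled by library size alone, the *Ifnar1* KO value was −2.62 and not called (edgeR adjusted p = 0.0583). Without WT 2 the log2 fold changes were −2.05 and −2.45, with edgeR adjusted p-values of 0.00464 and 0.0327.

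*Tnfsf13* (APRIL) was the most abundant of the 5 transcripts in the main table, with 597 to 821 counts per library, which the second table below does not bear out in WT 1 and WT 3. It was at 23, 27.1 and 22.4 CPM in WT, at 30.5, 25.9, 29.7, 27.8 and 31.3 CPM in *Tlr7* KO, and at 24.2, 25.3 and 26.5 CPM in *Ifnar1* KO. All 11 mice lay close together, with *Tlr7* KO 2 below WT 2 and the other *Tlr7* KO mice above every WT mouse. The mean was 1.20-fold higher in *Tlr7* KO (29.1 ± 2.17 CPM) than in WT (24.2 ± 2.56 CPM), a log2 fold change of 0.27 with a 95% confidence interval from 0.07 to 0.47 and an edgeR adjusted p of 0.0461, and this direction flipped to −0.22 (adjusted p = 0.342) when values were scaled by library size alone. That call was lost in 6 of the 8 fits that left out 1 mouse, those without WT 1, WT 3 or *Tlr7* KO 1, 3, 4 or 5, with log2 fold changes between 0.22 and 0.34 over the 8 fits. It was 0.34 without WT 2 (edgeR adjusted p = 0.00801). In *Ifnar1* KO (25.3 ± 1.13 CPM), the log2 fold change was 0.05, with an interval from −0.21 to 0.31 and an edgeR adjusted p of 0.782, and without WT 2 it was 0.12 (adjusted p = 0.388). A second deposited table, made by another method, gave *Tnfsf13* 117 to 172 counts per library, fewer by 4.52 to 5.51 times, where the median gene had 1.38 to 1.46 times fewer. In it *Tnfsf13* had a log2 fold change of 0.28 in *Tlr7* KO (edgeR adjusted p = 0.112), and in WT 1 and WT 3 its counts (123 and 160) were below those of *Tnfrsf13c* (267 and 308) and *Tnfrsf13b* (184 and 202). The neighbour *Tnfsf12* (TWEAK) was at 10.9, 16 and 11.2 CPM in WT, 11.1 to 13.1 CPM in *Tlr7* KO and 9.91 to 11.6 CPM in *Ifnar1* KO, and was called in neither KO (edgeR adjusted p = 0.644 and 0.3). *Tnfsf12* was low in the second table too, at 39, 71 and 59 counts in WT 1 to 3, against 321, 376 and 411 in the main table. Like *Tnfsf13*, it shares exonic bases with *Tnfsfm13* (48.3%). Whether this overlap lowers the counts of both genes in the second table was not tested.

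Of the receptors, *Tnfrsf13c* (BAFF-R), the receptor of mature B cells, varied most. It was at 13, 2.3 and 12.6 CPM in WT, at 0.842, 1.82, 0.19, 0.413 and 0.157 CPM in *Tlr7* KO, and at 0.376, 0.86 and 0.0836 CPM in *Ifnar1* KO. WT 2 lay far below the other WT mice and just above *Tlr7* KO 2, the highest KO mouse, while *Ifnar1* KO 3 held 2 counts and *Tlr7* KO 5 held 3. The log2 fold change from WT (9.3 ± 6.06 CPM) was −3.76 ± 0.709 in *Tlr7* KO (0.685 ± 0.691 CPM, edgeR adjusted p = 0.00519). It was −4.41 ± 0.84 in *Ifnar1* KO (0.44 ± 0.392 CPM, edgeR adjusted p = 0.023). Without WT 2, the lowest WT mouse, the log2 fold changes were −4.21 and −4.87.

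*Tnfrsf13b* (TACI), which binds both ligands, was at 9.06, 2.34 and 7.82 CPM in WT, at 1.57, 2.08, 1.33, 1.2 and 1.15 CPM in *Tlr7* KO, and at 0.956, 1.83 and 0.919 CPM in *Ifnar1* KO. WT 2 was again the lowest WT mouse, and the KO mice formed a narrow band just below it. From WT (6.41 ± 3.57 CPM), the log2 fold change was −2.13 ± 0.385 to *Tlr7* KO (1.47 ± 0.38 CPM) and −2.41 ± 0.536 to *Ifnar1* KO (1.24 ± 0.516 CPM), with edgeR adjusted p-values of 0.00436 and 0.0271. Without WT 2, the log2 fold changes were −2.53 and −2.80.

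*Tnfrsf17* (BCMA), the receptor of plasma cells, was near the limit of detection, with 5 to 19 counts per library. It was at 0.441, 0.468 and 0.301 CPM in WT, at 0.651, 0.78, 0.455, 0.413 and 0.262 CPM in *Tlr7* KO, and at 0.341, 0.71 and 0.334 CPM in *Ifnar1* KO. The 3 groups overlapped, with the highest value in *Tlr7* KO 2 and the lowest in *Tlr7* KO 5. Relative to WT (0.403 ± 0.0899 CPM), the log2 fold change was 0.37 in *Tlr7* KO, with a 95% interval from −0.53 to 1.26, and 0.18 in *Ifnar1* KO, with an interval from −0.92 to 1.29 (edgeR adjusted p = 0.507 and 0.805). Both values were −0.08 when scaled by library size alone. A change of BCMA of the size seen for BAFF-R or TACI lies outside these intervals.

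The calls for BAFF, TACI and BAFF-R in *Tlr7* KO were kept in each of the 8 fits that left out 1 mouse. Over these fits, the log2 fold changes lay between −2.22 and −1.63 for BAFF, between −2.53 and −1.79 for TACI and between −4.50 and −3.44 for BAFF-R. The value of BAFF-R was −4.50 without *Tlr7* KO 2, and with scaling by library size alone it was −4.38. In *Ifnar1* KO, all 3 calls were lost without WT 1, without WT 3, without *Ifnar1* KO 1 and without *Ifnar1* KO 3, at edgeR adjusted p-values from 0.0675 to 0.147. The number of genes called over all genes then fell from 2677 to 13, 104, 0 and 0. In those 4 fits, no list of genes described below kept more than 1 call in *Ifnar1* KO. Over all 6 fits that left out 1 mouse of this comparison, the log2 fold changes lay between −3.27 and −1.85 for BAFF, between −2.80 and −2.08 for TACI and between −5.29 and −3.97 for BAFF-R.

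**Figure D2:**
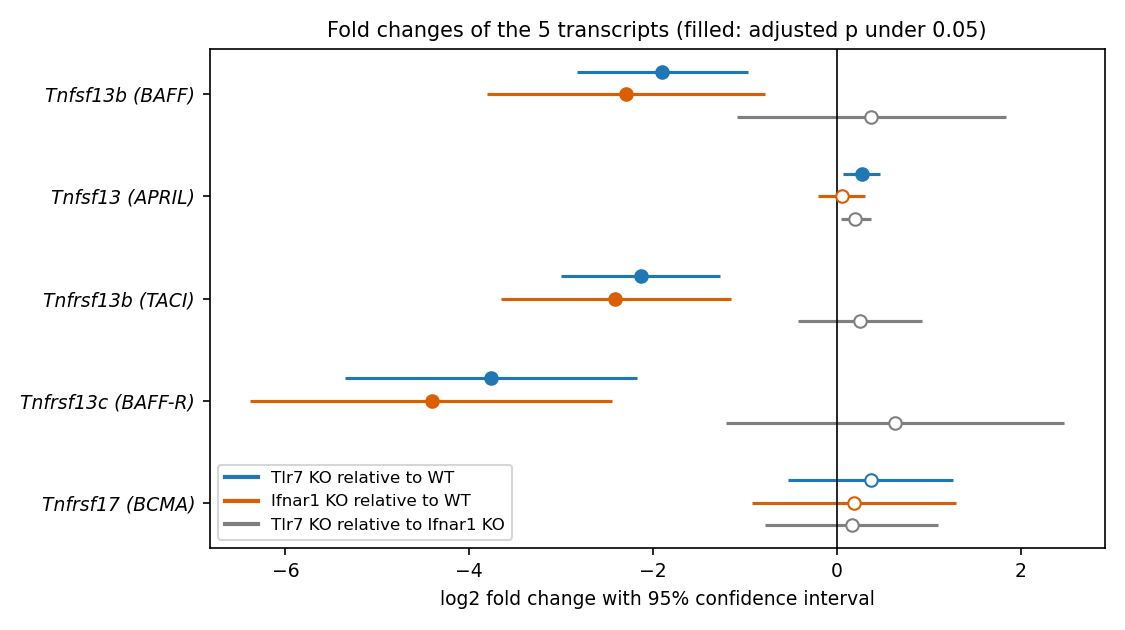
Log2 fold change of each transcript with its 95% confidence interval from edgeR's quasi-likelihood fit, for *Tlr7* KO relative to WT, *Ifnar1* KO relative to WT and *Tlr7* KO relative to *Ifnar1* KO, with filled points for an adjusted p under 0.05. The intervals of *Tnfsf13b*, *Tnfrsf13b* and *Tnfrsf13c* lie below 0 for both KO groups relative to WT, and none of the 5 differences between the KO groups was called.

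To see whether the KO strains differed from each other, they were compared directly, and none of the 5 transcripts was called by edgeR, where 1.79% of all genes were. DESeq2 called none either, and 1 transcript (*Tnfsf13*) had an unadjusted p under 0.05, where 16.3% of all genes did. Relative to *Ifnar1* KO, the log2 difference in *Tlr7* KO was 0.37 for BAFF, with a 95% interval from −1.09 to 1.84, and 0.20 for APRIL, with an interval from 0.04 to 0.37 (edgeR adjusted p = 0.816 and 0.214). For the receptors it was 0.63 for BAFF-R (−1.21 to 2.47), 0.25 for TACI (−0.42 to 0.92) and 0.16 for BCMA (−0.78 to 1.10), with edgeR adjusted p-values of 0.743, 0.718 and 0.881. The intervals of BAFF, BAFF-R and BCMA are wide enough to hold differences of more than 1 log2 unit, so the strains are not shown to be alike in these transcripts.

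Levels of different genes were compared per length, as CPM per kilobase of exonic sequence. This length joins the exons of all annotated transcripts, 6868 bases over 6 transcripts for BAFF and 815 bases for BCMA. In plain CPM, BAFF (1.08) was above BCMA (0.403) in WT, so their order there depends on this length. In the main table, APRIL in WT glands stood at 14.8 ± 1.56 CPM per kb, followed by BAFF-R (4.54 ± 2.96), TACI (2.26 ± 1.26), BCMA (0.495 ± 0.11) and BAFF (0.158 ± 0.0467). The spreads of BAFF-R and TACI over mice overlap, but both were lowest in WT 2, so these receptors are compared within mice below. The lead of APRIL depends on the table: in the second, BAFF-R was above APRIL per length in WT 1 (130.4 against 75.1 counts per kb) and WT 3 (150.4 against 97.7), but not in WT 2 (17.1 against 79.4). That order carries the low *Tnfsf13* counts of the second table, which its overlapping neighbour *Tnfsf12* shares. In *Tlr7* KO glands the order was APRIL (17.7 ± 1.33 CPM per kb), BCMA (0.628 ± 0.25), TACI (0.517 ± 0.134), BAFF-R (0.334 ± 0.337) and BAFF (0.0424 ± 0.022), and the spreads of the 3 receptors over mice overlapped. In *Ifnar1* KO glands APRIL stood at 15.5 ± 0.703 CPM per kb, BCMA at 0.566 ± 0.264, TACI at 0.435 ± 0.182, BAFF-R at 0.215 ± 0.191 and BAFF at 0.0321 ± 0.0303. Within single mice, the ratio of TACI to BAFF-R per length was 0.505, 0.736 and 0.447 in WT. For counting error alone, its exact 95% interval lay below 1 in WT 1 (0.43 to 0.592) and WT 3 (0.384 to 0.519). That of WT 2, from 0.496 to 1.09, holds 1. The ratio was 1.35, 0.825, 5.06, 2.09 and 5.3 in *Tlr7* KO and 1.84, 1.54 and 7.94 in *Ifnar1* KO, with each KO value above each WT value. The lowest of these, in *Tlr7* KO 2, has an interval from 0.534 to 1.28 that overlaps that of WT 2, so that these mice cannot be told apart within counting error. These ratios are given as a description, and the highest rests on 2 counts of BAFF-R, with an interval from 1.95 to 69.7.

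B cell markers moved with BAFF-R and TACI. All 11 of 11 B cell markers tested, which include *Cd79a*, a chain of the B cell receptor complex, and *Ms4a1* (CD20), were called lower in both KO groups, beside 17.4% and 12.4% of all genes. The median of their log2 fold changes was −3.30 for *Tlr7* KO mice and −4.30 for *Ifnar1* KO mice, while the median over all genes was −0.04 and −0.02. Their summed level ranged from 98.7 to 344 CPM in WT, from 7.63 to 60.6 CPM in *Tlr7* KO and from 2.63 to 25.5 CPM in *Ifnar1* KO, and *Ms4a1*, *Pax5*, *Fcrla* and *Fcmr* were among those at 0 counts in *Ifnar1* KO 3. T cell markers were lower as well, where 9 of the 12 tested were called for *Tlr7* KO and 10 for *Ifnar1* KO, beside the same shares. Without WT 2, all 11 B cell markers were called in both, and 11 and 12 T cell markers, beside 48.9% and 34.4% of all genes. In *Tlr7* KO all 11 B cell markers kept their call without any 1 mouse. T cell markers called fell to 3 without WT 1 and 4 without WT 3, beside 20.9% and 20.2% of all genes. To set the receptors beside the B cell signal of the same mouse, the mean log2 CPM of the markers was subtracted from that of each receptor, and groups were compared by two-sided exact permutation tests, as 12 such comparisons in all, with Benjamini-Hochberg adjustment over the 12. The smallest p that 3 mice against 5 can give is 0.0179, and 3 against 3 cannot go below 0.1.

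Relative to B cell markers, BAFF-R was at −0.92, −1.55 and −0.73 log2 units in WT, at −1.05, −1.24, −1.08, −1.32 and −2.60 in *Tlr7* KO, and at −1.0, −0.99 and −0.17 in *Ifnar1* KO. The groups overlapped, and the differences from WT were −0.39 in *Tlr7* KO (exact permutation p = 0.446, adjusted 0.487) and 0.35 in *Ifnar1* KO (exact permutation p = 0.6, adjusted 0.6). Without WT 2 these were −0.63 and 0.11 (exact permutation p = 0.286 and 1). TACI was at −1.43, −1.53 and −1.41 log2 units relative to the same markers in WT, at −0.21, −1.05, 1.32, 0.06 and −0.20 in *Tlr7* KO, and at 0.19, 0.04 and 2.47 in *Ifnar1* KO. Each KO mouse lay above each WT mouse, and the group means were higher by 1.44 and 2.36 log2 units. The latter leans on *Ifnar1* KO 3, without which it was 1.58, and lay between 1.58 and 2.79 when each of the 6 mice was left out in turn. The difference in *Tlr7* KO did not pass the test (exact permutation p = 0.0536, adjusted 0.214). That in *Ifnar1* KO had the smallest p that 3 mice against 3 can give, so it could not pass (exact permutation p = 0.1, adjusted 0.24). Without WT 2 the differences were 1.41 and 2.33 (exact permutation p = 0.0952 and 0.1).

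Plasma cell markers, set beside BCMA, moved in both directions. Of 11 tested, 5 were lower and 2 higher in *Tlr7* KO, beside 17.4% and 15.3% of all genes, and 3 were lower and 2 higher in *Ifnar1* KO, beside 12.4% and 6.76%. Without WT 2, all 11 were called in *Tlr7* KO and 6 in *Ifnar1* KO, beside 48.9% and 34.4% of all genes. Among the lower were *Mzb1*, an endoplasmic reticulum protein of antibody-secreting cells (log2 fold changes −1.83 and −1.24, edgeR adjusted p = 0.000665 and 0.0343), and *Jchain*, which joins IgA and IgM (−1.33 and −0.32, adjusted p = 0.000952 and 0.38, the second not called). The 2 higher were *Sdc1* (0.63 and 0.82) and *Derl3* (0.83 and 0.87), genes that secretory epithelium also expresses, as it does *Xbp1*. Scaled by library size alone, neither was called, at 0.15 and 0.55 for *Sdc1* and 0.35 and 0.58 for *Derl3*. The summed level of the 11 markers was 820 to 1030 CPM in WT, 788 to 863 CPM in *Tlr7* KO and 800 to 995 CPM in *Ifnar1* KO. *Xbp1* made up 309, 455 and 357 CPM of it in WT 1 to 3. Neither this sum nor the marker mean used next therefore follows plasma cells alone. Relative to the mean of all 11 markers, BCMA was at −5.53, −5.17 and −5.85 log2 units in WT, −4.51, −4.36, −4.68, −4.81 and −5.33 in *Tlr7* KO and −5.10, −4.61 and −5.20 in *Ifnar1* KO. The groups overlapped, and the mean was above that of WT by 0.78 in *Tlr7* KO (exact permutation p = 0.0536, adjusted 0.214) and by 0.55 in *Ifnar1* KO (exact permutation p = 0.2, adjusted 0.343). Without WT 2 these were 0.95 and 0.72 (exact permutation p = 0.0476 and 0.1, not adjusted).

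Myeloid markers, of the cells that make much of the BAFF in tissues, were called in numbers that depended on the mice and the fit. Of 14 tested, 3 were called lower in each KO group, beside 17.4% of all genes in *Tlr7* KO and 12.4% in *Ifnar1* KO, with median log2 fold changes of −0.72 and −1.70, and the summed level was 175 to 327 CPM in WT, 157 to 182 CPM in *Tlr7* KO and 48.9 to 142 CPM in *Ifnar1* KO. The 3 in *Tlr7* KO included *Lyz2*, a lysozyme of macrophages and neutrophils (−0.57, edgeR adjusted p = 0.0257), and *Flt3*, a dendritic cell growth factor receptor (−1.58, adjusted p = 0.00562). Without WT 2, 10 of the 14 were called in *Tlr7* KO and 11 in *Ifnar1* KO, beside 48.9% and 34.4% of all genes. In *Tlr7* KO, 1 was called without WT 1 and 5 without *Tlr7* KO 2, beside 20.9% and 30.8% of all genes. In *Ifnar1* KO, 5 were called without *Ifnar1* KO 2, beside 11.4% of all genes, and 8 by DESeq2 (24.1%) or with all mice in a single fit (36.8%). In *Tlr7* KO, 7 were called when scaled by library size alone (31.5%) and 5 by DESeq2 (33%). Relative to these markers, BAFF was at −2.09, −0.62 and −1.37 log2 units in WT, −2.24, −2.05, −2.75, −3.24 and −2.20 in *Tlr7* KO, and −2.21, −1.74 and −2.63 in *Ifnar1* KO. WT 2 held the highest value and WT 1 fell within the KO range. The difference from WT in *Tlr7* KO was −1.14 (exact permutation p = 0.0357, adjusted 0.214), and without WT 2 it was −0.76 (exact permutation p = 0.143). In *Ifnar1* KO it was −0.84 (exact permutation p = 0.2, adjusted 0.343), and −0.46 without WT 2 (exact permutation p = 0.4).

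**Figure D3:**
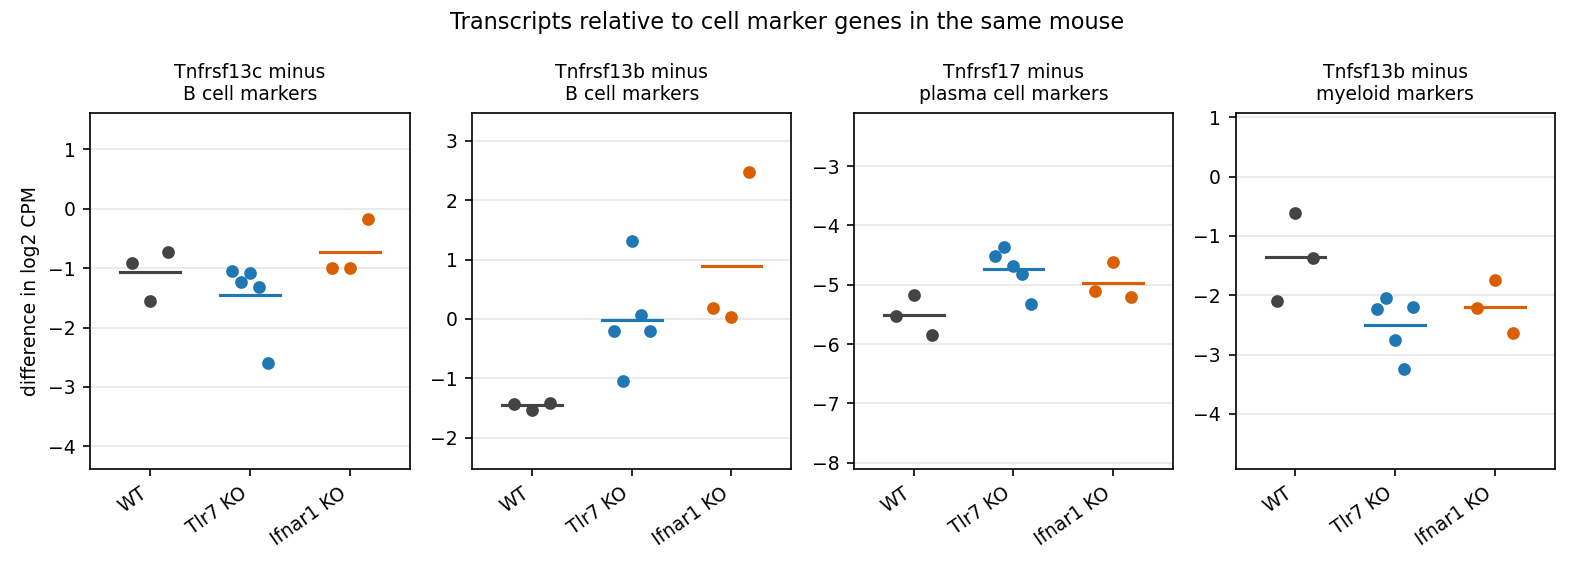
Level of BAFF-R, TACI, BCMA and BAFF transcripts minus the mean of a cell marker list in the same mouse, in log2 units, with 1 point per mouse, a bar at the group mean and the same span on each vertical axis. TACI relative to B cell markers is higher in all 8 KO mice than in the 3 WT mice, BAFF-R relative to the same markers overlaps between groups, and *Tlr7* KO 5 is the lowest for BAFF-R at −2.60.

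BAFF is known to respond to IFN, and IFN-stimulated genes were followed beside it. All 15 of 15 were lower in *Ifnar1* KO than in WT (median log2 fold change −3.27), while 2 of 15, among them *Gbp2* (−1.92, edgeR adjusted p = 0.0227), were lower in *Tlr7* KO (median −0.70), beside 12.4% and 17.4% of all genes. Without WT 2, 9 of the 15 were called in *Tlr7* KO and 15 in *Ifnar1* KO, beside 48.9% and 34.4% of all genes. In *Tlr7* KO, 0 were called without WT 1, WT 3, *Tlr7* KO 1 or *Tlr7* KO 4, 1 without *Tlr7* KO 3 or 5, and 3 without *Tlr7* KO 2. In these fits, 20.2% to 30.8% of all genes were called. In the direct comparison of the KO strains, 12 of 15 were higher in *Tlr7* KO (median 2.92), where 0.926% of all genes were called in this direction. With 1 mouse left out, 3 to 12 were called, beside 0.61% to 6.29% of all genes called in either direction. The fewest were called without *Ifnar1* KO 1 (3), *Tlr7* KO 3 or 5 (6), *Ifnar1* KO 3 (7) and *Tlr7* KO 1 (8). Among the 12, *Irf7*, a transcription factor induced by type I IFN, differed by 3.67 (edgeR adjusted p = 0.00921). Those not called included *Cxcl10* and *Gbp2*, at 2.28 and 1.30. For BAFF the log2 difference in this comparison was 0.37, and the upper end of its interval, 1.84, lies below the median of the IFN-stimulated genes.

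The signalling genes downstream of the receptors were lower in part. Of 20 tested adaptors, kinases and NF-κB subunits, 9 were lower and 2 higher in *Tlr7* KO (median log2 fold change −0.38), beside 17.4% and 15.3% of all genes, and 8 were lower and 1 higher in *Ifnar1* KO (median −0.55), beside 12.4% and 6.76%. The deepest were *Traf5*, an adaptor of TNF receptors (−2.20 and −2.59), *Syk*, a kinase of B cell receptor and BAFF-R signalling (−2.19 and −2.61), and *Traf1* (−1.86 and −2.82), each called in both KO groups. Without WT 1 or WT 3, 7 and 5 of the 20 were called in *Tlr7* KO, beside 20.9% and 20.2% of all genes. Without WT 2, 14 were called in *Tlr7* KO and 15 in *Ifnar1* KO, beside 48.9% and 34.4% of all genes. *Nfkb2*, the precursor subunit that BAFF-R signalling processes to p52, fell by 1.05 on the log2 scale in *Tlr7* KO and by 1.21 in *Ifnar1* KO (edgeR adjusted p = 0.0053 and 0.0251). *Traf3*, which holds back that pathway, fell by 0.32 in *Tlr7* KO and stood at −0.45 in *Ifnar1* KO (adjusted p = 0.0189 and 0.056), and *Nfkb1* was called in neither (−0.21 and −0.56). *Map3k14* (NIK), the kinase that starts p52 processing, and its partner *Relb* were looked up after the values were seen, at −0.96 and −0.69 in *Tlr7* KO and −1.76 and −1.19 in *Ifnar1* KO, all called. The 2 higher genes, also named after their values were seen, were *Traf3ip2* (Act1), at 0.48 in *Tlr7* KO and 0.53 in *Ifnar1* KO, and *Ikbkg* (NEMO), at 0.28 in *Tlr7* KO, and in *Tlr7* KO both turned to −0.03 and −0.22 when scaled by library size alone.

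Genes named as targets of BAFF-R signalling in B cells were lower for the most part. Of 10 tested, 7 were lower in each KO group and none higher, with median log2 fold changes of −1.15 and −1.67, beside 17.4% and 12.4% of all genes called lower. Without WT 2, 8 were called in each, beside 48.9% and 34.4% of all genes. *Cr2* (CD21), a complement receptor of mature B cells, fell by 3.27 in *Tlr7* KO and by 4.22 in *Ifnar1* KO (edgeR adjusted p = 0.00727 and 0.0225), and *Fcer2a* (CD23) fell by 3.18 and 4.67 (adjusted p = 0.00942 and 0.0216). *Icosl*, a ligand for T cell help, fell by 1.94 and 2.24. The list also holds *Bcl2l11* (Bim), a promoter of cell death that BAFF signalling is known to hold down, named here after its values were seen, at −0.33 and −0.37 (edgeR adjusted p = 0.0843 and 0.287). Of the survival genes, *Bcl2* (−1.53 and −1.92), *Bcl2a1b* (−1.42 and −2.87) and *Pim1* (−0.88 and −1.42) were called lower in both KO groups. *Pim2* was called in neither (−0.45 and −0.42). *Bcl2*, *Pim1* and *Pim2* were named after their values were seen. *Mcl1* fell by 0.28 in *Tlr7* KO and was at −0.22 in *Ifnar1* KO (adjusted p = 0.0432 and 0.226). *Bcl2l1* (Bcl-xL) was at −0.20 in *Tlr7* KO and fell by 0.59 in *Ifnar1* KO (adjusted p = 0.099 and 0.0346). *Cr2* and *Fcer2a* are themselves transcripts of B cells, whose markers were lower in the same mice, and the part of B cell number in these values was not tested.

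Genes that cut, shed or hold the ligands and receptors were called at shares not far from those of all genes. Of 15 tested, 4 were lower and 2 higher in *Tlr7* KO (median log2 fold change −0.15), beside 17.4% and 15.3% of all genes, and 2 were lower and 2 higher in *Ifnar1* KO (median −0.10), beside 12.4% and 6.76%. Without WT 2, 10 were called in *Tlr7* KO and 5 in *Ifnar1* KO, beside 48.9% and 34.4% of all genes. In *Ifnar1* KO, 1 was called without *Ifnar1* KO 2, beside 11.4% of all genes. *Furin*, the protease that releases both ligands, was higher in both (0.53 and 0.60, edgeR adjusted p = 0.00282 and 0.0404), and it was 0.03 and 0.28, and not called, when scaled by library size alone. *Adam17*, a sheddase, was lower in both (−0.67 and −0.94, adjusted p = 0.0233 and 0.0311), and *Adam10*, which cuts TACI and BAFF-R from the cell surface, fell by 0.30 in *Tlr7* KO (adjusted p = 0.016) and was at −0.23 in *Ifnar1* KO. *Adam10* was named after its values were seen. Of the heparan sulfate proteoglycans, to which APRIL binds, *Gpc1* fell by 1.40 and 2.13, *Sdc2* fell by 1.09 in *Tlr7* KO and was at 0.12 in *Ifnar1* KO, and *Sdc3* was higher by 0.81 in *Tlr7* KO and stood at 0.42 in *Ifnar1* KO (adjusted p = 0.00197 and 0.0984), and in *Tlr7* KO it was 0.31 and not called (adjusted p = 0.28) when scaled by library size alone.

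Other members of the TNF superfamily were lower along with BAFF. Of 10 ligands tested, 7 were lower in each KO group and none higher (median log2 fold changes −2.16 and −2.68), beside 17.4% and 12.4% of all genes called lower. *Ltb* (lymphotoxin β), which organizes lymphoid tissue, fell by 2.68 in *Tlr7* KO and by 4.11 in *Ifnar1* KO (edgeR adjusted p = 0.00597 and 0.0216), *Tnfsf8* (CD30 ligand) by 2.67 and 3.27, and *Tnfsf10* (TRAIL) by 1.34 and 2.21. Of 21 receptors tested, 13 were lower in *Tlr7* KO and 12 in *Ifnar1* KO, and none was higher (medians −1.36 and −1.83). Without WT 2, 7 and 8 ligands and 16 receptors in each KO group were called, beside 48.9% and 34.4% of all genes. In *Tlr7* KO, 3 ligands and 3 receptors were called without WT 1, and as many without WT 3, beside 20.9% and 20.2% of all genes. Without *Tlr7* KO 1, 3, 4 or 5, 5 to 8 receptors were called, beside 23.6% to 27.9% of all genes. In *Ifnar1* KO, 4 ligands were called without *Ifnar1* KO 2, beside 11.4% of all genes. Among the receptors, *Cd40*, a receptor for T cell help, fell by 2.91 in *Ifnar1* KO and by 1.69 in *Tlr7* KO, and *Tnfrsf4* (OX40) by 3.26 and 2.18. *Tnfrsf1a*, a receptor for TNF found on most cells, fell by 0.38 in *Tlr7* KO (adjusted p = 0.0068), and *Ltbr*, the stromal receptor for lymphotoxin, was called in neither (0.16 and 0.25).

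**Figure D4:**
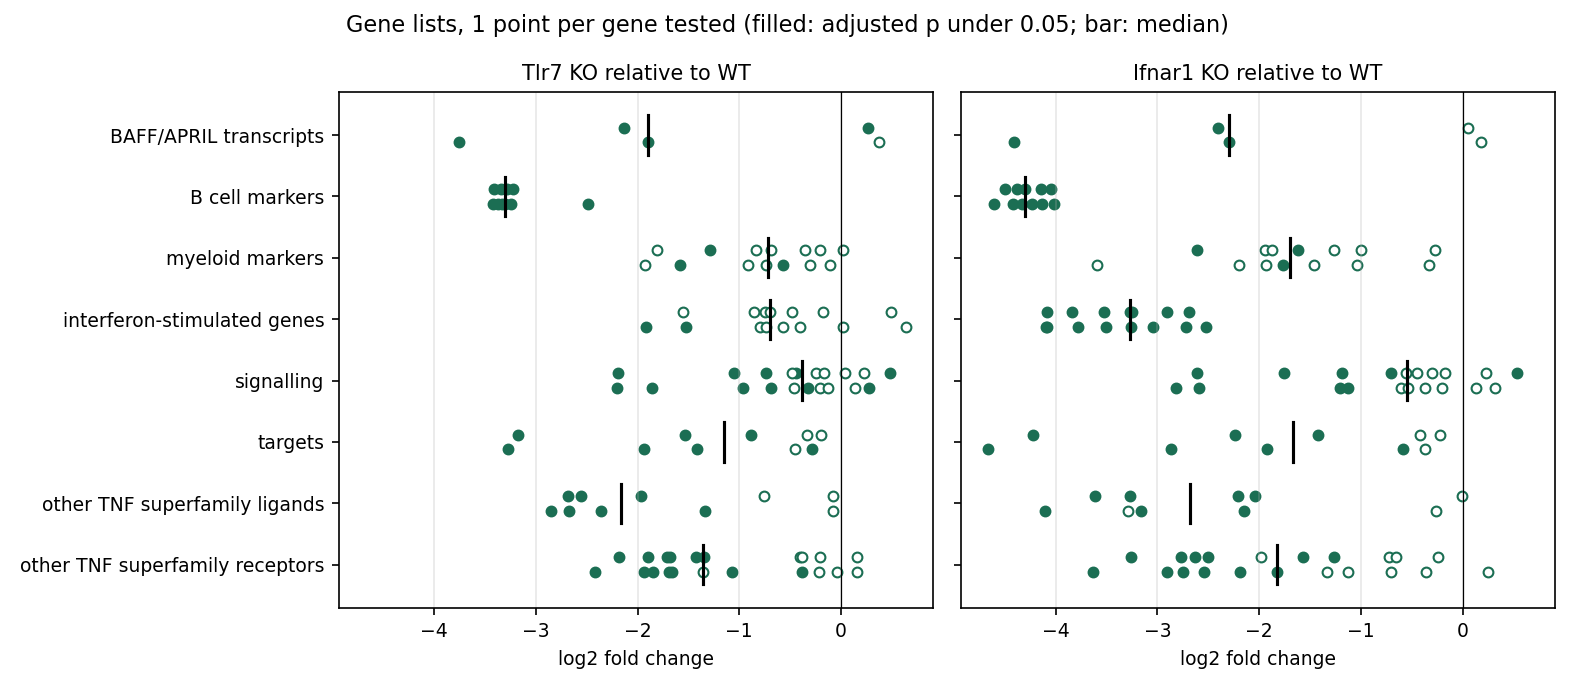
Log2 fold change of each tested gene of the named lists for *Tlr7* KO relative to WT and *Ifnar1* KO relative to WT, with 1 point per gene, filled for an adjusted p under 0.05 by edgeR's quasi-likelihood test, and a bar at the list's median. The 11 B cell markers are all filled and below 0 in both panels, and the 15 IFN-stimulated genes are all filled in the *Ifnar1* KO panel, against 2 in the *Tlr7* KO panel.

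Between the KO strains, none of the signalling genes, BAFF-R target genes, other TNF superfamily genes or B cell, T cell and myeloid markers was called by edgeR, of 98 tested, while 17 had an unadjusted p under 0.05, beside 16.3% of all genes, and DESeq2 called 7, of which 3 were myeloid markers, beside 4.09% of all genes. Without *Ifnar1* KO 2, edgeR called 12 of the 98, of which 5 were myeloid markers, beside 6.29% of all genes. Without *Ifnar1* KO 1 it called 1 target gene, beside 0.653% of all genes. With a replicate block 18 of the 98 were called, 4 each of the B cell, T cell and myeloid markers, beside 3.6% of all genes. Their median log2 differences in *Tlr7* KO relative to *Ifnar1* KO were 0.16 for signalling genes, 0.38 for targets, 0.68 for other ligands, 0.67 for other receptors, 0.97 for B cell markers, 1.03 for T cell markers and 0.72 for myeloid markers, against 0 over all genes. Outside these 98, *Jchain* (−1.02, edgeR adjusted p = 0.0397), of 11 plasma cell markers, was called lower in *Tlr7* KO than in *Ifnar1* KO. So were *Sdc2* (−1.22, edgeR adjusted p = 0.0373), of 15 processing and shedding genes, and 2 of 6 adjacent tissue markers, beside 1.79% of all genes called in either direction. The calls of *Jchain* and *Sdc2* were lost without any 1 *Tlr7* KO mouse and without *Ifnar1* KO 3.

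The genes with the most similar pattern over the 11 mice were found by the root mean square (RMS) distance of mean-centred log2 CPM among 11492 genes. For BAFF-R they were *Cr2*, *Siglecg*, *Cd79a*, *Cd22* and *Gpr18*, at 0.383 to 0.493 log2 units, where the median gene lay at 2.108, and *Cr2*, *Siglecg*, *Cd79a* and *Cd22* are known as B cell surface genes. For TACI they were *Itgb3*, *Syk*, *Cd55*, *Wipf1* and *Stk10*, at 0.195 to 0.22 (median gene 1.101). For BAFF they were *Grap2*, *Ubash3b*, *Abhd8*, *Runx3* and *Nedd9*, at 0.283 to 0.345 (median gene 1.109), of which *Grap2* encodes an adaptor of T cell receptor signalling and *Runx3* a transcription factor of T cells and myeloid cells. For APRIL they were *Cinp*, *Prelid1*, *Tmem8*, *Ap2s1* and *Ctsd*, at 0.056 to 0.075 (median gene 0.267), with log2 fold changes of 0.16 to 0.31 in *Tlr7* KO and −0.05 to 0.14 in *Ifnar1* KO. For BCMA, the nearest gene, *A230004M16Rik*, lay at 0.272 (median gene 0.485), with 5 to 19 counts behind each BCMA value.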

How the data were processed

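Whole-gland RNA from 11 mice (3 WT, 5 *Tlr7* KO, 3 *Ifnar1* KO) was analysed from gene tables that the authors deposited. The main table holds estimated counts per gene, made by the authors with salmon and tximport through bcbio. Although named as normalized, its columns were read as not normalized and rounded to whole numbers. Their totals differ, which alone does not settle this reading. The median gene had 1.38 to 1.46 times the counts of the second table, depending on the mouse. The second deposited table holds counts per gene; the submitters' processing notes name HISAT2 2.1.0 and mm10, and the counting tool is not given in the sources used here. The main table has 19058 genes and the second 39017, with 1 column of no listed sample that was not used, and the authors left out an *Ifnar1* KO mouse that resembled WT.

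Groups were compared in pairs with edgeR 4.0.16 (limma 3.58.1, R 4.3.3): TMM factors, at least 30 counts summed over WT, glmQLFit and glmQLFTest without covariates, Benjamini-Hochberg adjustment over all genes tested and an adjusted p under 0.05. Fold changes are edgeR's, and CPM values use TMM factors. The log2 CPM used for marker lists and RMS distances took a prior count of 2, and RMS distances left out genes averaging under 1 CPM. Per-length levels used the exonic length in GENCODE M21. The scripts were tested on simulated data. Alternatives were DESeq2 1.42.0, DESeq2-type (RLE) size factors, library size alone, filterByExpr, no filter, all mice in a single fit, a replicate block, the second table, a prior count of 0.5, and leaving out each mouse. Intervals on ratios cover counting error only.

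The members and lists were chosen with earlier results of these data known. The rule for naming genes took the members, *Tlr7*, *Ifnar1*, *Tnfsf12* and the 5 genes nearest to each member. From each list it took the 3 most abundant and the 3 with the largest called change per KO. It was followed in part: *Cd40lg*, *Lta*, *Ngfr*, *Tnfrsf21* and most of the genes nearest to BCMA are among those that meet it and are not described. Examples among genes called, markers at 0 counts, uncalled IFN-stimulated genes and genes of adjacent tissue that fall outside this rule were chosen after their values were seen. Some genes of the lists are not reported here by name.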

Additional observations from a re-analysis of the deposited data

Results flagged for a closer look

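Within the 5 *Tlr7* KO mice, BAFF-R (*Tnfrsf13c*) relative to B cell markers was −2.60 log2 units in *Tlr7* KO 5, while the other 4 mice lay between −1.32 and −1.05. The gap to the nearest mouse was large for the range of the group, by Dixon's test at the 95% level. The value rests on 3 counts of *Tnfrsf13c* in that mouse, the limit of detection used here, and chance flags about 1 in 20 groups. The screen also covered the CPM of the 5 transcripts, *Tlr7*, *Ifnar1* and *Tnfsf12*, and the other levels relative to markers. A single flag among so many can arise by chance. Without this mouse, the difference between *Tlr7* KO and *Ifnar1* KO was −0.45, against −0.74 with it (exact permutation p = 0.0714, adjusted 0.214). No p is given without it, since the mouse was left out for its own value.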

How the results depend on the processing

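The lower BAFF, TACI and BAFF-R transcripts in *Tlr7* KO kept their direction and call in every alternative except the replicate block. APRIL in *Tlr7* KO lost its call with RLE factors (0.26), filterByExpr (0.25), no filter (0.26) and the second table (0.28), and over the fits without 1 mouse it ranged from 0.22 to 0.34. Scaling by library size alone shifted the all-gene median (log2) from −0.037 to −0.536 in *Tlr7* KO and from −0.017 to −0.312 in *Ifnar1* KO, and the share of called genes that were lower from 53.2% to 97.2% and from 64.8% to 96.2%. It turned APRIL to −0.22 in *Tlr7* KO and −0.23 in *Ifnar1* KO, BCMA to −0.08 in both and to 0.00 between the KO strains, took the BAFF call in *Ifnar1* KO (−2.62, adjusted p = 0.0583) and left 1340 genes called there. With all 11 mice in a single fit, 5124 genes were called in *Ifnar1* KO and 93 between the KO strains, where DESeq2 called 570. The cause was not tested.

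Leaving out 1 mouse, genes called ranged from 2601 to 6595 in *Tlr7* KO, from 0 to 4643 in *Ifnar1* KO and from 85 to 877 between the KO strains, and members called in *Ifnar1* KO from 0 to 3. In *Ifnar1* KO, BAFF ranged from −3.27 to −1.85, TACI from −2.80 to −2.08, BAFF-R from −5.29 to −3.97, APRIL from −0.01 to 0.12 and BCMA from −0.25 to 0.39. Reversals were APRIL at −0.01 without WT 3 and 0.00 without *Ifnar1* KO 3, and BCMA at −0.25 without *Ifnar1* KO 2. Between the KO strains, BAFF ranged from −0.08 to 1.35, BAFF-R from −0.11 to 1.52 and BCMA from −0.03 to 0.61, with reversals of BAFF at −0.08 without *Ifnar1* KO 3, of BAFF-R at −0.11 without *Tlr7* KO 2, and of BCMA at −0.03, −0.02 and −0.01 without *Tlr7* KO 2, *Ifnar1* KO 1 and *Ifnar1* KO 3. BCMA fell under the filter when a WT mouse was left out, which gave no value.

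Relative to markers, exact permutation tests passed an unadjusted p of 0.05 for TACI in *Tlr7* KO with the second table (1.45, exact p = 0.0357) and without *Tlr7* KO 2 (1.70, exact p = 0.0286), and for BCMA with library size alone (0.86, exact p = 0.0357), without WT 2 (0.95, exact p = 0.0476) and without *Tlr7* KO 5 (0.93, exact p = 0.0286). Without 1 mouse, the difference of *Tlr7* KO from WT ranged from 1.11 to 1.70 for TACI, from 0.61 to 0.95 for BCMA and from −1.50 to −0.76 for BAFF, whose unadjusted call was lost in 6 of 8, and that of BAFF-R between the KO strains from −0.88 to −0.45.

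Replicate numbers recur between groups, and the correlations of same-numbered mice were −0.14, −0.40 and 0.03 between WT and *Tlr7* KO, −0.16, −0.44 and −0.28 between WT and *Ifnar1* KO, and 0.06, 0.34 and 0.26 between the KO strains. In no comparison were all 3 above 0.1, so the numbers were not taken to pair mice, though for numbers 2 and 3 the same-numbered KO mice correlated best. With a replicate block, 14 genes and 0 members were called in *Tlr7* KO (BAFF −1.70, APRIL 0.25, TACI −1.80, BAFF-R −3.27), 0 genes and 0 members in *Ifnar1* KO (BAFF −2.44, TACI −2.28, BAFF-R −4.23) and 502 genes and 0 members between the KO strains, where 18 of 98 genes of the signalling, target, TNF superfamily and cell marker lists were called. Few counts limit BAFF and BCMA, at 1 to 53 and 5 to 19 counts per library.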
